A study of Mus musculus with 16 samples.

Results

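The collagen genes were taken as every probe whose array symbol has the standard form of a collagen chain name (as in Col1a1) in the authors' table of normalized values. The rule found 57 probes for 32 genes, out of 24040 probes for 16537 genes on the array. Of these, 22 genes had at least 1 probe bright enough to be tested. The other 10 were Col11a1, Col11a2 and Col24a1 among the fibrillar collagens, Col4a3, Col4a5 and Col8a2 among the network collagens, Col9a1, Col20a1 and Col22a1 among the FACITs, and the transmembrane Col13a1. By class, tested genes out of all genes numbered 7 of 10 fibrillar, 3 of 6 network, 3 of 6 FACIT, 1 of 1 anchoring, 3 of 3 beaded filament, 2 of 2 multiplexin and 2 of 3 transmembrane collagens, with Col28a1 as the only other member.

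The arrays measured RNA of pericytes and endothelial cells that had been sorted by flow cytometry, uncultured, from primary tumours. The tumours came from 67NR cells, a mouse mammary carcinoma line of BALB/c origin, placed in the mammary fat pad and harvested after 2 to 4 weeks, at an average of 10 mm across. All hosts were female mice of the Balb/c UbGFP strain, 6 to 8 weeks old, so the green fluorescent protein transgene was carried by both genotypes. They were wild type or knockout for endosialin (Cd248), a membrane glycoprotein of pericytes and fibroblasts, and the tumour cells themselves were the same line in both. Each of the 2 cell types was profiled from each genotype on 4 arrays, which makes 4 groups. The labels give neither the sorting markers nor whether the 4 replicates of a group came from separate animals, and p-values therefore measure only the spread between these samples.

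Collagens are the main structural proteins of the extracellular matrix, built as helical trimers of chains. Fibrillar collagens such as types I, III and V form the fibres of connective tissue, FACITs sit on the surface of those fibres, type VI forms beaded filaments, and network collagens, above all type IV, form the sheet of the vascular basement membrane that pericytes and endothelial cells share. Type VII forms the fibrils that anchor epithelial basement membranes to the stroma below, and type XVII is a transmembrane collagen of the hemidesmosomes of basal epithelial cells.

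Promoter sequences are shown for 3 collagens that represent the patterns described below: Col1a2 and Col3a1, chains of the fibrillar collagens with some of the highest signals in pericytes, and Col7a1, the anchoring collagen that was higher in knockout pericytes. Each is the 250 bases before the transcription start, on the plus strand, from RefSeq with the GRCm38.p6 mouse assembly, at chr6:4505368-4505617 for Col1a2, chr1:45311288-45311537 for Col3a1 and chr9:108953336-108953585 for Col7a1. No other annotated gene overlaps these windows. Capitals mark matches, on either strand, to the letters of the CCAAT box (CCAAT) and of 2 other promoter motifs. These were the TATA box, searched as TATAAA, and the GC box, searched as GGGCGG.
Col1a2: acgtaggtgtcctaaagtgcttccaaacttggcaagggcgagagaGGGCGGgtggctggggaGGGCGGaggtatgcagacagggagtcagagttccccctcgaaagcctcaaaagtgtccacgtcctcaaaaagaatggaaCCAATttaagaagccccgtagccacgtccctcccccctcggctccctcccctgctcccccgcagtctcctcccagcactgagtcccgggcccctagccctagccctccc
Col3a1: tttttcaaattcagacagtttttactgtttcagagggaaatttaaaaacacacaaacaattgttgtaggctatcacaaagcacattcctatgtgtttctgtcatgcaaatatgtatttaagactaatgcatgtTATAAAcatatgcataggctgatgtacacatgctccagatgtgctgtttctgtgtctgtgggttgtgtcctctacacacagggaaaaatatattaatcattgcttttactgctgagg
Col7a1: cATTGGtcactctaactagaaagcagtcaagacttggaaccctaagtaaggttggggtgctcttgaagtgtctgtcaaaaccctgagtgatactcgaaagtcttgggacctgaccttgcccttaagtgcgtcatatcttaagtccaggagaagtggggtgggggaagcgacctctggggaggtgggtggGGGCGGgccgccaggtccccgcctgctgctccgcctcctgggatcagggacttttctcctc

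In the Col1a2 window, GC boxes began 205 and 188 bases before the start and a CCAAT box 109 bases before it. The Col3a1 window, with a GC content of 35.2% against 62% for Col1a2, held a TATA box 117 bases before the start. The Col7a1 window held a GC box 61 bases before the start and a CCAAT box on the opposite strand 249 bases before it. All 32 collagens matched a RefSeq gene by symbol, and 26 of them had a promoter window in the reference tables. Counting every annotated start, a GC box was found in 16 of 29 collagen windows (55.2%) and in 32.7% of all 32851 windows of the same length. The corresponding shares were 37.9% and 33.8% for the CCAAT box and 13.8% and 12.4% for the TATA box. These matches describe letters only and show no binding. Neighbouring collagen genes on the chromosome were Col3a1 and Col5a2 on chromosome 1, Col6a2 and Col6a1 on chromosome 10, and Col4a1 and Col4a2 on chromosome 8.

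Signal was even between arrays after the authors' normalization, with medians of 7.18 to 7.21 log2 units. Correlations across genes were 0.92 to 0.98 within a group and 0.70 to 0.78 between pericyte and endothelial arrays. The brighter Cd248 probe read 10.75 to 11.19 in wild-type pericytes and 6.96 to 7.21 in knockout pericytes, as labelled, and 6.92 to 7.44 on endothelial arrays. A dimmer Cd248 probe read 8.15 to 9.07 in wild-type and 6.69 to 6.72 in knockout pericytes. The mean of 11 endothelial markers lay between 9.26 and 9.45 on endothelial arrays and between 6.96 and 7.22 on pericyte arrays. The mean of 9 pericyte markers other than Cd248 lay between 8.51 and 9.79 on pericyte arrays and between 7.82 and 8.14 on endothelial arrays. Of these 9, Mcam went the other way, at 9.19 to 10.91 on pericyte and 11.03 to 11.34 on endothelial arrays. Kcnj8 and Abcc9 overlapped between the cell types, and the rest were higher on every pericyte array. Knockout pericyte replicates 2, 3 and 4 stood apart in keratinocyte markers, whose mean over 18 genes was 9.37, 9.28 and 8.82 there, 7.31 in knockout replicate 1 and 6.88 to 7.55 in the wild-type pericytes. Results on knockout pericytes are therefore also given without those 3 arrays.

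Most collagen transcripts were higher in tumour pericytes than in tumour endothelial cells, with the largest class medians in fibrillar and beaded filament collagens. In wild-type hosts 16 of 22 tested collagens were higher in pericytes, 2 were lower and 4 did not pass limma's test at an adjusted p of 0.05. Among all 10426 genes tested, 17.1% were higher in pericytes and 19.1% were lower. The 4 arrays of each cell type did not overlap for 15 collagens higher and 2 lower in pericytes, against 16.3% and 17.2% of all genes. The median log2 difference was 2.09 over the collagens and -0.03 over all genes. By class, the median was 3.69 for fibrillar, 3.99 for beaded filament, 1.94 for FACIT, 0.15 for multiplexin and -0.20 for network collagens. Of the 22 tested collagens, 13 lay above the array median on no wild-type endothelial array. They could pass the probe filter only with pericyte arrays, while the 10 untested collagens were dim in both cell types. These counts and medians therefore depend on the filter, which was applied to all genes alike. In bulk samples such as these, fewer cells of a type and less RNA per cell cannot be told apart.

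**Figure D1:**
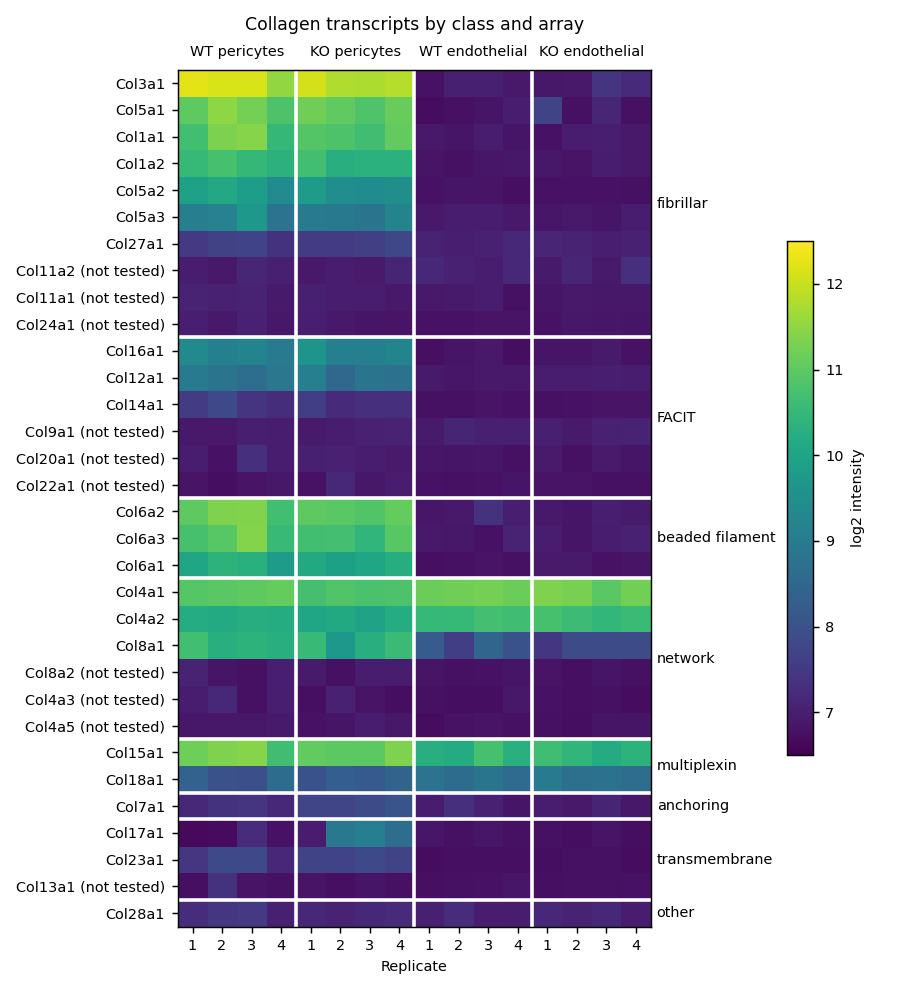
Log2 intensity (colour) of all 32 collagens, each by 1 probe and the 10 untested ones marked, in rows grouped by class, on the 16 arrays in columns grouped by cell type and genotype (WT wild type, KO knockout). Most tested fibrillar, beaded filament and FACIT collagens are bright on the 8 pericyte arrays and near the floor on the 8 endothelial arrays, while Col4a1, Col4a2, Col15a1 and Col18a1 are bright on both.

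Col3a1 encodes the chain of type III collagen, a fibrillar collagen of distensible tissue. It read 12.25, 12.15, 12.17 and 11.52 log2 units in wild-type pericytes, 12.11, 11.78, 11.77 and 11.83 in knockout pericytes, 6.79, 7.02, 7.03 and 6.91 in wild-type endothelial cells and 6.89, 6.90, 7.40 and 7.21 in knockout endothelial cells. All 8 pericyte arrays were far above all 8 endothelial arrays, which lay between 6.79 and 7.40. In wild type the difference was 5.08 ± 0.15 (SE, n = 4 and 4), or 33.9-fold (limma, adjusted p = 1.16e-14). In knockout it was 4.77, or 27.3-fold (limma, adjusted p = 2.73e-14). A second Col3a1 probe gave 4.19 in wild type. Because the values are compressed near their floor of 6.58, folds against the endothelial arrays understate large differences.

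Col1a1, a chain of the type I collagen that makes up most fibres, read 10.69, 11.31, 11.42 and 10.50 in wild-type pericytes and 10.90, 10.82, 10.67 and 11.07 in knockout pericytes. Endothelial arrays gave 6.92, 6.84, 6.95 and 6.84 in wild type and 6.80, 6.96, 7.01 and 6.92 in knockout. The cell types did not overlap, and the wild-type difference of 4.09 ± 0.16 (SE) was 17.0-fold (limma, adjusted p = 3.37e-13). Col1a2, the other type I chain, was 12.9-fold higher in wild-type pericytes (limma, adjusted p = 4.01e-15). Col5a1, a chain of the type V collagen that helps start type I fibres, read 11.00, 11.48, 11.24 and 10.82 in wild-type pericytes and 11.21, 11.03, 10.85 and 11.10 in knockout pericytes. The endothelial values were 6.71, 6.77, 6.85 and 6.95 in wild type and 7.72, 6.78, 7.15 and 6.78 in knockout, where replicate 1 was the highest. Pericytes were again separate from endothelial cells, with a wild-type difference of 4.32 ± 0.17 (SE), or 19.9-fold (limma, adjusted p = 6.85e-13).

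The remaining fibrillar collagens followed in the same direction with smaller differences. The type V chains Col5a2 and Col5a3 were 8.09-fold and 4.75-fold higher in wild-type pericytes (limma, adjusted p = 7.16e-13 and 1.99e-10). The 5 kept probes of Col5a2 ranged from 1.22 to 3.02 log2 units in this difference, so its size depends on the probe. Col27a1, a fibrillar collagen best known from cartilage, was at 7.39 to 7.71 in wild-type pericytes and 7.01 to 7.19 in wild-type endothelial cells, a difference of 0.49 ± 0.09 (limma, adjusted p = 0.000185). All 7 tested fibrillar collagens were thus higher in pericytes in wild type, and all 7 were in knockout.

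All 3 chains of the beaded filament collagen VI were higher in pericytes. Its chain gene Col6a2 read 11.01, 11.34, 11.36 and 10.68 in wild-type pericytes and 11.00, 10.96, 10.88 and 11.09 in knockout pericytes. Endothelial cells read 6.86, 6.91, 7.37 and 7.01 in wild type and 6.91, 6.84, 7.01 and 6.93 in knockout. No endothelial array came near a pericyte array, and the wild-type difference of 4.06 ± 0.13 (SE) was 16.7-fold (limma, adjusted p = 4.54e-14). A second Col6a2 probe gave 0.73, also past the threshold. Col6a3 and Col6a1, the other chains of the same trimer, were 15.9-fold and 10.3-fold higher (limma, adjusted p = 1.23e-13 and 3.43e-14).

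The FACITs differed by less. Col16a1 read 9.36, 9.09, 9.20 and 8.98 in wild-type pericytes and 9.60, 9.08, 9.09 and 9.21 in knockout pericytes. On endothelial arrays it read 6.74, 6.83, 6.91 and 6.72 in wild type and 6.83, 6.83, 6.94 and 6.80 in knockout. Every pericyte array was above every endothelial array, and the wild-type difference was 2.36 ± 0.11 (SE), or 5.12-fold (limma, adjusted p = 5.72e-12). Col12a1, which binds type I fibres, was 3.84-fold higher in wild-type pericytes, and Col14a1, a relative of it, was 1.66-fold higher (limma, adjusted p = 2.53e-11 and 1.78e-05).

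Network collagens did not share one direction. Col4a1, a chain of the main type IV collagen of vascular basement membrane, read 10.92, 10.97, 11.00 and 11.09 in wild-type pericytes and 10.73, 10.87, 10.78 and 10.83 in knockout pericytes. Endothelial arrays gave 11.16, 11.19, 11.24 and 11.16 in wild type and 11.35, 11.26, 10.97 and 11.22 in knockout. Both cell types were bright, and the pericyte arrays were slightly the lower. The wild-type difference of -0.20 ± 0.08 (SE) did not pass (limma, adjusted p = 0.0730), while the knockout difference of -0.39 ± 0.08 did (limma, adjusted p = 0.000924).

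Its partner chain Col4a2 read 10.22, 10.17, 10.23 and 10.21 in wild-type pericytes and 10.05, 10.14, 9.95 and 10.21 in knockout pericytes. The endothelial values were 10.52, 10.53, 10.71 and 10.65 in wild type and 10.76, 10.61, 10.48 and 10.59 in knockout. Pericytes were lower without overlap, by -0.40 ± 0.08 (SE) in wild type and -0.52 ± 0.08 in knockout (limma, adjusted p = 0.000858 and 5.35e-05). Col8a1, a short-chain network collagen of vessel walls, went the other way. It read 10.68, 10.26, 10.39 and 10.28 in wild-type pericytes and 10.57, 9.69, 10.28 and 10.58 in knockout pericytes, against 8.25, 7.61, 8.46 and 8.02 in wild-type and 7.46, 7.87, 7.89 and 7.90 in knockout endothelial cells. It was thus 4.98-fold higher in wild-type pericytes, with a difference of 2.32 ± 0.19 (SE; limma, adjusted p = 1.64e-08), and its endothelial arrays were still above the array median.

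The multiplexins, basement membrane collagens that carry sugar chains, were bright in both cell types and differed in opposite directions. Col15a1 read 11.17, 11.34, 11.41 and 10.67 in wild-type pericytes and 11.07, 10.98, 10.99 and 11.33 in knockout pericytes. Endothelial cells read 10.26, 10.20, 10.75 and 10.32 in wild type and 10.66, 10.46, 10.18 and 10.38 in knockout. Wild-type pericyte replicate 4 fell inside the endothelial range, and the wild-type difference of 0.77 ± 0.16 (SE) was 1.70-fold (limma, adjusted p = 0.000685). Col18a1, the precursor of endostatin, read 8.39, 7.99, 7.96 and 8.62 in wild-type pericytes and 8.00, 8.30, 8.21 and 8.41 in knockout pericytes. On endothelial arrays it read 8.78, 8.62, 8.84 and 8.59 in wild type and 8.99, 8.72, 8.76 and 8.65 in knockout. Pericytes were lower, by -0.47 ± 0.13 (SE) in wild type, where replicate 4 overlapped the endothelial arrays, and by -0.55 ± 0.13 in knockout, where they did not overlap (limma, adjusted p = 0.0105 and 0.00330). The wild-type call rests on 1 probe, as the 2 other Col18a1 probes gave -0.06 and -0.25 and did not pass.

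Of the transmembrane collagens, Col23a1 was dim but higher in pericytes. It read 7.44, 7.82, 7.83 and 7.17 in wild-type and 7.72, 7.70, 7.83 and 7.74 in knockout pericytes, against 6.70, 6.74, 6.74 and 6.75 in wild-type and 6.72, 6.76, 6.77 and 6.70 in knockout endothelial cells. The groups did not overlap, and the wild-type difference of 0.83 ± 0.11 (SE) was 1.78-fold (limma, adjusted p = 9.94e-06). Col17a1 and Col7a1 did not pass in wild type, with differences of 0.03 and 0.25 (limma, adjusted p = 0.948 and 0.0860). For Col7a1 a second probe gave 0.42 and passed in a fit over all kept probes (limma, adjusted p = 0.00114). Col28a1, a von Willebrand factor A domain collagen, read 7.29, 7.46, 7.50 and 7.03 in wild-type and 7.19, 7.08, 7.20 and 7.23 in knockout pericytes, against 7.02, 7.25, 6.95 and 6.99 in wild-type and 7.18, 7.07, 7.19 and 6.97 in knockout endothelial cells. These ranges overlapped, and its differences of 0.27 and 0.07 passed in neither genotype (limma, adjusted p = 0.0510 and 0.636). The wild-type result was borderline, as the same probe passed in a fit over all kept probes (limma, adjusted p = 0.0488).

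**Figure D2:**
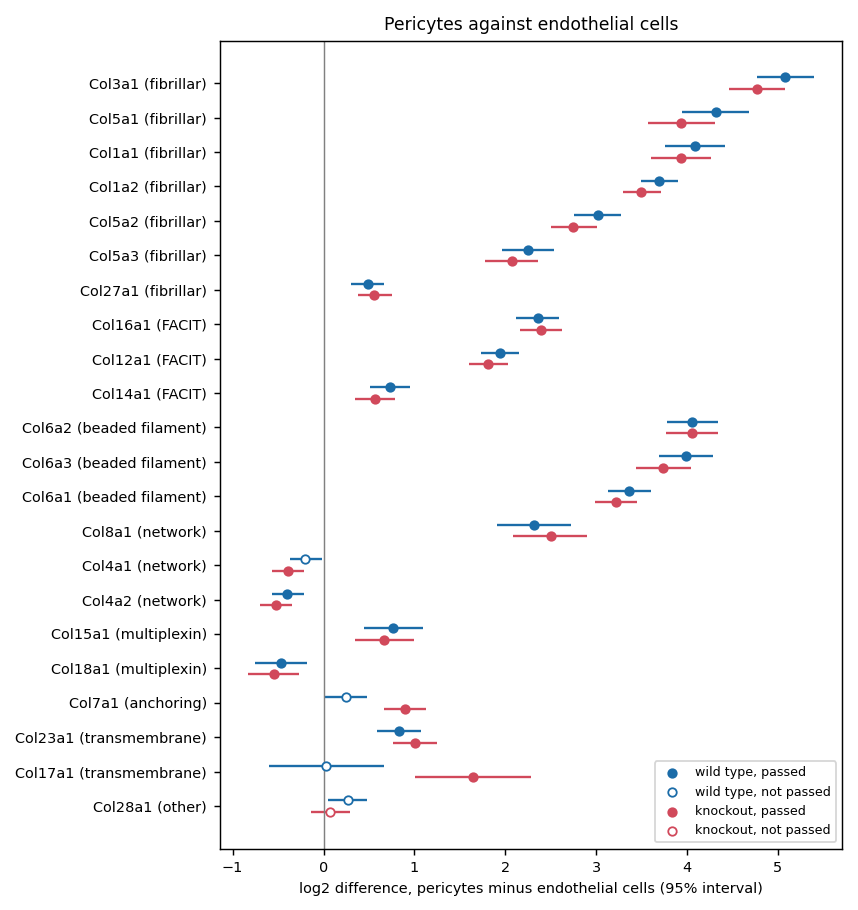
Log2 difference between pericytes and endothelial cells for each tested collagen, in wild type and in knockout, with its 95% confidence interval from limma; filled points pass an adjusted p of 0.05. Differences reach 5.08 for Col3a1 and are below 0 for Col4a1, Col4a2 and Col18a1 in both genotypes.

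In knockout hosts 18 of 22 collagens were higher in pericytes and 3 were lower, against 17.4% and 18.5% of all genes tested. The arrays did not overlap for all 21 of these, against 17.3% higher and 19.4% lower of all genes. The 16 collagens higher in wild type were all among the 18, and the 2 others were Col7a1, 1.87-fold higher, and Col17a1, 3.13-fold higher (limma, adjusted p = 2.26e-06 and 0.000246). The 3 lower were Col4a1, Col4a2 and Col18a1. Without knockout pericyte replicates 2, 3 and 4, 1 knockout pericyte array is left, which is assumed to vary like the other groups. In that fit 16 collagens were higher, with Col17a1 at 0.22 and Col15a1 at 0.65 not past the threshold (limma, adjusted p = 0.475 and 0.0930). For Col15a1 the difference with all arrays was 0.67. Of the 22 collagens, 18 in wild-type pericytes and 20 in knockout pericytes lay above the array median on all 4 arrays. In each endothelial group 5 did, namely Col4a1, Col4a2, Col8a1, Col15a1 and Col18a1, while 13 in wild-type and 14 in knockout endothelial cells lay above it on no array.

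Fibroblasts also make fibrillar collagens, and 10 fibroblast markers were read on the same arrays. Their mean was 9.92, 10.33, 10.26 and 9.60 in wild-type pericytes, 10.24, 9.92, 9.96 and 10.08 in knockout pericytes and 6.85 to 7.07 on endothelial arrays. Their part in the collagen differences was not tested. All 10 were above the array median on every pericyte array. Within wild-type pericytes, replicate 4 was the lowest of the 4 arrays for 14 of the 16 pericyte-high collagens, while 42.6% of all 1785 genes higher in wild-type pericytes had their lowest value there. The exceptions were Col8a1, lowest in replicate 2, and Col12a1, lowest in replicate 3. The mean over those 16 collagens was 9.87, 10.03, 10.03 and 9.57 in wild-type pericytes and 9.92, 9.66, 9.70 and 9.87 in knockout pericytes, so replicate 4 was lowest in wild type and replicate 2 in knockout for both the collagens and the fibroblast markers. The mean of the 9 pericyte markers other than Cd248 was 9.40, 8.51, 8.58 and 9.79 in wild-type and 8.87, 9.04, 8.79 and 9.07 in knockout pericytes, highest in replicate 4 of each.

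**Figure D3:**
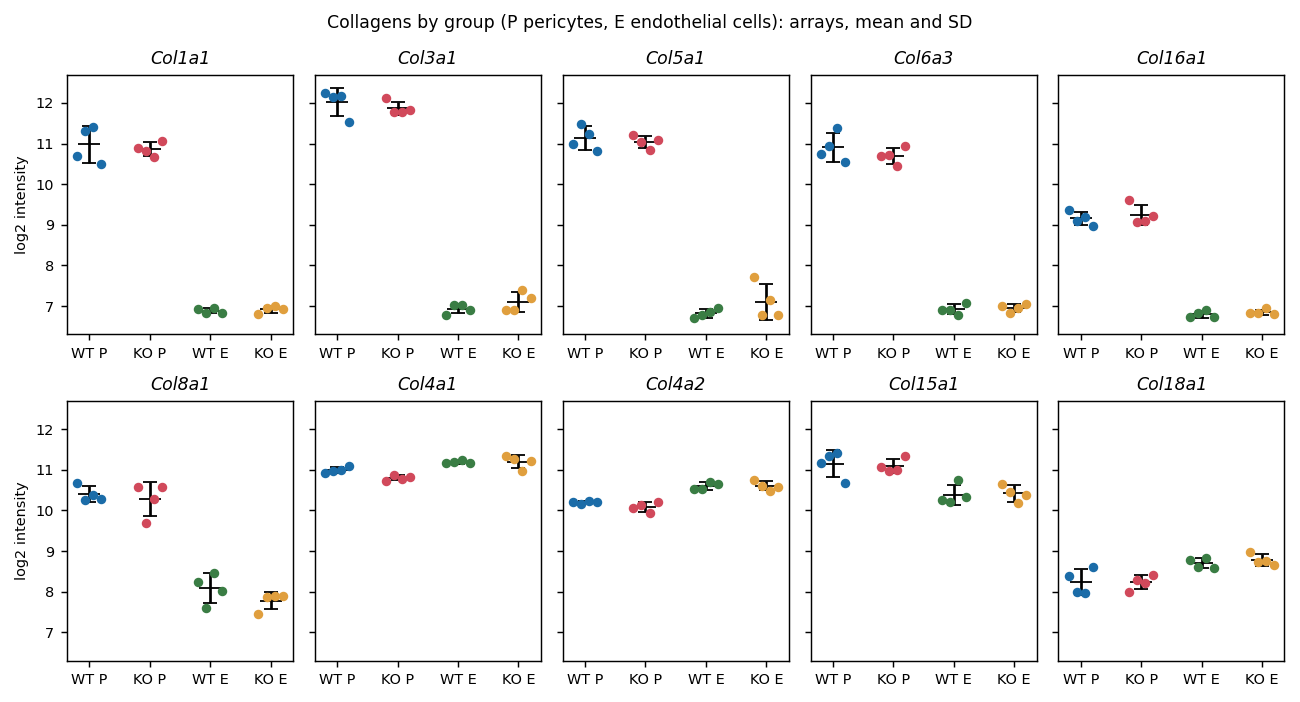
Log2 intensity of 10 collagens (panels) on each array (points), with the group mean and SD as a horizontal line and error bar, for wild-type (WT) and knockout (KO) pericytes (P) and endothelial cells (E). Col1a1, Col3a1 and Col5a1 separate the cell types completely, while Col4a1 is close to 11 in all 4 groups.

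Loss of endosialin was compared next, first in pericytes. Only 2 of 22 collagens differed, both higher in knockout, namely the anchoring collagen Col7a1 and the transmembrane collagen Col17a1, while 0.307% of all genes were higher and 0.00959% lower. No fibrillar, beaded filament, FACIT, network or multiplexin collagen passed. Of the 22 differences, 17 were below 0, as were 52.2% of all genes, and the collagen median was -0.11 against -0.01. At an unadjusted p of 0.05, 4 collagens passed, against 7.13% of all genes. Col7a1 and Col17a1 met the filter of 4 arrays above the array median only with the help of knockout pericyte arrays. Col17a1 was above it on 1 wild-type and 3 knockout pericyte arrays. Col7a1 was above it on 2 wild-type and 4 knockout pericyte arrays and 1 wild-type endothelial array. Without the filter Col7a1 kept its call and Col17a1 did not (limma, adjusted p = 0.0463 and 0.0726).

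Col7a1 read 7.17, 7.38, 7.41 and 7.17 in wild-type pericytes, with a mean of 7.28 ± 0.13 (SD, n = 4), and 7.76, 7.76, 7.87 and 8.07 in knockout pericytes, with a mean of 7.87 ± 0.15. Endothelial arrays gave 6.96, 7.32, 7.04 and 6.83 in wild type and 6.95, 6.92, 7.12 and 6.88 in knockout. All 4 knockout pericyte arrays were above all arrays of the other groups, and 1.38% of all genes had knockout pericytes above wild-type pericytes without overlap. The difference was 0.58 ± 0.11 (SE; 95% interval 0.35 to 0.81), or 1.50-fold (limma, adjusted p = 0.0297). A second probe read 7.14, 7.22, 7.15 and 7.10 in wild type and 7.89, 7.46, 7.45 and 7.45 in knockout pericytes, again without overlap. Its difference of 0.41 ± 0.09 did not pass in a fit over all kept probes (limma, adjusted p = 0.0834).

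Col17a1 read 6.66, 6.67, 7.26 and 6.80 in wild-type pericytes, with a mean of 6.85 ± 0.28 (SD, n = 4), and 6.98, 8.90, 9.09 and 8.64 in knockout pericytes, with a mean of 8.40 ± 0.97. The endothelial values were 6.87, 6.76, 6.87 and 6.76 in wild type and 6.76, 6.73, 6.81 and 6.73 in knockout. Knockout replicates 2, 3 and 4 were high, and knockout replicate 1 lay within the wild-type range. The difference was 1.55 ± 0.30 (SE; 95% interval 0.92 to 2.19), or 2.94-fold (limma, adjusted p = 0.0321). A second probe showed the same arrays high, at 6.90, 6.75, 7.42 and 6.78 in wild type and 7.07, 8.87, 8.82 and 8.44 in knockout, and passed with 1.34 in a fit over all kept probes (limma, adjusted p = 0.0479).

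Both genes are also expressed by keratinocytes, and most of the 18 keratinocyte markers were high on the same 3 knockout arrays. Lor was not, at 6.75 to 6.81 in knockout pericytes. The mean of the 18 was 6.94, 6.88, 7.55 and 7.12 in wild-type and 7.31, 9.37, 9.28 and 8.82 in knockout pericytes, and 6.83 to 6.88 on endothelial arrays. Of the 18, 3, 1, 12 and 4 were above the array median in wild-type and 8, 17, 17 and 16 in knockout pericytes. The mean of 3 tumour epithelium markers was 7.08, 6.88, 7.99 and 7.80 in wild-type and 7.27, 8.33, 8.37 and 9.24 in knockout pericytes, and that of 6 mast cell markers 6.79, 7.61, 9.23 and 9.92 and 7.05, 8.75, 9.59 and 8.67. The part of any of these lists in the result was not tested. Wild-type replicate 3 was the highest of its group for Col17a1, for the keratinocyte markers and for the tumour epithelium markers. The mast cell markers were highest in wild-type replicate 4. With the keratinocyte marker mean as a covariate, the Col17a1 difference was -0.02 ± 0.13 (SE) and did not pass. Without knockout replicates 2, 3 and 4, the arrays where Col17a1 was high, it was 0.13. The Col7a1 difference was 0.50 ± 0.18 with the covariate and 0.48 ± 0.17 without those arrays, and neither passed (limma, adjusted p = 1.00 and 1.00). The fit without those arrays again rests on 1 knockout pericyte array. Because the keratinocyte list was taken from earlier results of these data, these fits cannot decide its part in either difference. Leaving out a single array ended the Col7a1 call in 7 of 16 fits and the Col17a1 call in 14 of 16, by adjusted p-values of 0.0502 to 0.171 for Col17a1.

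**Figure D4:**
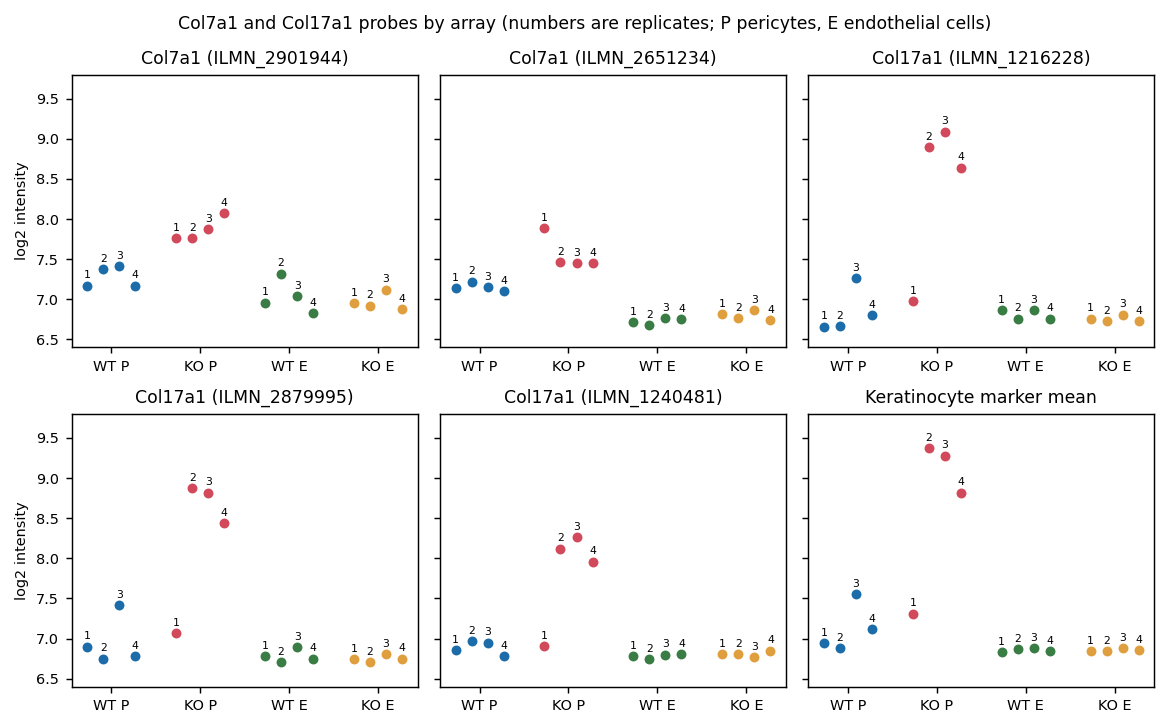
Log2 intensity of 2 Col7a1 probes, 3 Col17a1 probes and, in the last panel, the mean of the keratinocyte markers, with 1 point per array numbered by replicate, by group. For the tested Col17a1 probe, knockout pericyte replicates 2, 3 and 4 (8.90, 9.09 and 8.64) stand apart with the markers, while for the tested Col7a1 probe all 4 knockout pericyte arrays lie at 7.76 or above.

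For the main fibrillar chains the intervals of the knockout difference included 0. In pericytes it was -0.11 for Col1a1 (95% interval -0.44 to 0.22), -0.15 for Col3a1 (-0.47 to 0.16) and -0.09 for Col5a1 (-0.45 to 0.28). A second Col3a1 probe gave 0.11 in a fit over all kept probes. Col5a2, with -0.28, had the most negative difference of the tested collagens, each by its tested probe (limma, adjusted p = 0.633). For Col6a1 the tested probe gave -0.05. Other kept Col6a1 probes gave -0.39 and -0.33 and did not pass in a fit over all kept probes (limma, adjusted p = 0.498 and 0.462). Col4a1 was lower in knockout on all 4 arrays without overlap, as were 1.63% of all genes, but its difference of -0.19 did not pass (limma, adjusted p = 0.648).

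**Figure D5:**
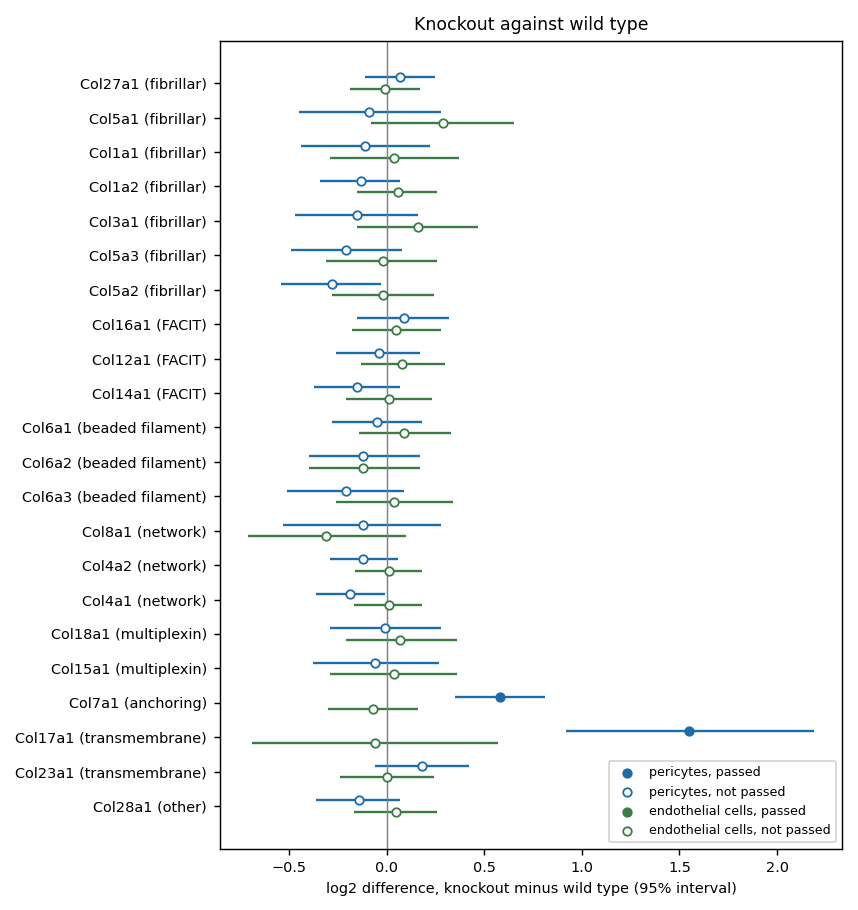
Log2 difference between knockout and wild type for each tested collagen, in pericytes and in endothelial cells, with its 95% confidence interval from limma; filled points pass an adjusted p of 0.05. Only Col7a1 and Col17a1 in pericytes pass, at 0.58 and 1.55, and every interval in endothelial cells includes 0.

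In endothelial cells 0 of 22 collagens passed limma's test, and 0 reached an unadjusted p of 0.05, against 0.00959% and 3.71% of all genes. The smallest unadjusted p was 0.118 for Col5a1, whose difference of 0.29 rests mainly on knockout replicate 1 at 7.72. Col8a1 had the most negative difference, -0.31. Col12a1 was the only collagen whose endothelial arrays did not overlap, higher in knockout by 0.08, as were 0.863% of all genes. It was dim there, above the array median on no endothelial array, and a second Col12a1 probe overlapped, with a difference of 0.03. The knockout effects in the 2 cell types were also compared directly, and 0 of 22 collagens passed, against 0.0192% of all genes, with 2 at an unadjusted p of 0.05 against 3.74%. For Col7a1 the effect was larger in pericytes by 0.65 ± 0.15 (SE; limma, adjusted p = 0.534), and for Col17a1 by 1.61 ± 0.43 (limma, adjusted p = 0.659).

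In wild type, most tested genes that make, process and degrade collagen were also higher in pericytes, and collagen receptors were divided. No gene of these lists passed in a comparison of knockout with wild type. Of 21 tested biosynthesis genes, 16 were higher and 1 lower in wild-type pericytes, with a median of 0.44, against 17.1% higher and 19.1% lower of all genes tested. They included the prolyl hydroxylase subunits P4ha2 (1.25) and P4ha3 (1.24), which stabilise the helix, the prolyl 3-hydroxylase family member Leprel2 (1.03) and Crtap (0.97), a subunit of a related hydroxylase complex. The galactosyltransferase gene Glt25d2 was lower (-0.57). In knockout 10 of the 21 were higher and 1 lower, against 17.4% and 18.5% of all genes. Of 8 processing and crosslinking genes, 6 were higher and 1 lower in each genotype, where the shares of all genes were again 17.1% and 19.1% in wild type and 17.4% and 18.5% in knockout. In wild type they included the procollagen peptidase Adamts2 (8.74-fold), the crosslinking oxidase Lox (6.52-fold), its relative Loxl1 (5.06-fold), and Bmp1 and its enhancer Pcolce (3.10-fold and 2.92-fold), while the protease Tll1 was lower (-0.76).

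Of 5 collagen receptors tested, 2 were higher and 2 lower in pericytes in each genotype, against 17.1% and 19.1% of all genes in wild type and 17.4% and 18.5% in knockout. In wild type, the tyrosine kinase Ddr2 was higher by 1.27 and the uptake receptor Mrc2 by 0.37, while the integrin subunits Itga2 and Itgb1 were lower by -0.82 and -0.58. Of 7 genes of collagen breakdown, 6 were higher and 0 lower in each genotype, beside those same shares of 17.1% and 19.1% in wild type and 17.4% and 18.5% in knockout. In wild type these included the gelatinase Mmp2 (9.82-fold), the collagenase Mmp13 (5.96-fold), the collagen-cleaving cathepsin Ctsk (5.82-fold), the membrane metalloprotease Mmp14 (2.55-fold) and the protease Fap (2.53-fold), which is also on the fibroblast list.

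The 10 collagens that could not be tested had 15 probes between 6.67 and 7.47, near the floor of the scale, so low or absent RNA and poor probes cannot be told apart. When no probe was filtered, none of the 10 passed in any of the 5 comparisons (limma, smallest adjusted p = 0.0599). Of the tested collagens, 12 had several kept probes, 30 in all. In the wild-type cell type comparison the probes of each of the 12 had one sign, and 24 of the 30 probes were higher and 1 lower. Between knockout and wild type, the probes had one sign for only 8 of the 12 in pericytes and 5 of the 12 in endothelial cells.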

How the data were processed

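RNA of pericytes and endothelial cells was measured on Illumina MouseWG-6 bead arrays, 16 in all. The deposited values are log2 intensities per probe, normalized by the authors; the submitters' processing notes name GenomeStudio and lumi. Software versions and the methods of background correction, transformation and normalization were not stated in the sources used here. No further normalization was applied. The repository's value table matched within 5.00e-09, and 0 columns belonged to samples of another series. Precision is limited by the number of arrays.

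Probes that exceeded the array's median on 4 or more of the 16 arrays were used, which left 14632 of 24040 probes and 40 of 57 collagen probes. Each of the resulting 10426 genes was represented by its brightest kept probe on average. A group-means model over all 16 arrays was fitted with limma 3.58.1 in R 4.3.3, where the residual degrees of freedom were 12 and the prior ones 5.58. P-values were adjusted by Benjamini-Hochberg over all genes, with a threshold of 0.05. The model was also run on simulated data of the same layout with independent noise on each array, which does not test the calls given here. Intervals are 95% intervals of limma's difference. Second probes were tested in a fit over all kept probes. The alternatives were other probe filters and probe choices, quantile normalization, array weights, a replicate block, a keratinocyte covariate, other variance settings and leaving out arrays.

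The members, classes, marker lists and pathway lists were chosen with earlier results of these data known, and the keratinocyte list was taken from those results. Values on every array are given for Col1a1, Col3a1 and Col5a1, for the highest and the most different members of each class and for members past the threshold in a knockout comparison. Promoter sequences come from RefSeq GRCm38.p6, and the files name no genome build.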

Additional observations from a re-analysis of the deposited data

Results flagged for a closer look

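Across the 22 tested collagens and 4 groups, 88 groups of 4 arrays were examined for a single array far from the others. There were 3 such arrays, while chance would give about 1 in 20 groups, or 4.40. Col3a1, the type III chain, was low in wild-type pericyte replicate 4 at 11.52, where the other 3 arrays lay between 12.15 and 12.25. Col5a2, a type V chain, was high in knockout pericyte replicate 1 at 9.81, with the other 3 between 9.42 and 9.47. Col8a1 was low in knockout endothelial replicate 1 at 7.46, with the other 3 between 7.87 and 7.90.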

How the results depend on the processing

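The cell type counts changed little. In wild type, 13 collagens (of 16 tested, stricter filter) to 18 were higher and 2 to 3 lower under the other settings. Leaving out 1 array at a time gave 16 to 18 collagens higher and 2 to 3 lower in wild-type pericytes, and 18 to 18 and 3 to 3 in knockout. The knockout pericyte count of 2 was less stable. It was 1 without a probe filter and 1 under limma's trended robust variance setting. With a stricter filter, which tested only 16 collagens, it was 0. That filter removed both Col7a1 and Col17a1 before the test, so this 0 says nothing about their differences. The count was also 0 with only the 2 pericyte groups in the fit and 0 with the keratinocyte covariate. When 1 array was left out, it was 0 to 2. It was 0 without knockout pericyte replicates 2, 3 and 4 together, an alternative chosen after seeing the data that leaves 1 knockout pericyte array, assumed to vary like the other groups. Except for the stricter filter, the cause was not tested. Col7a1 lay between 0.51 and 0.63 with 1 array left out and lost its call without wild-type pericyte replicates 1, 2 or 4, knockout pericyte replicates 2, 3 or 4, or knockout endothelial replicate 1 (limma, adjusted p = 0.0984, 0.0565, 0.0955, 0.0778, 0.119, 0.124 and 0.0517). Col17a1 lay between 1.33 and 2.03, the latter without knockout replicate 1 (limma, adjusted p = 1.79e-08), and with 1 array left out it kept its call only there and without wild-type pericyte replicate 3. For the difference of effects, 0 to 1 collagens were higher, the 1 being Col17a1 without knockout pericyte replicate 1. Directions that turned were those of Col17a1 (-0.02), Col3a1 (0.08) and Col5a1 (0.10) with the covariate, Col3a1 (0.08) and Col5a1 (0.07) without the 3 knockout arrays, and, with 1 array left out, Col1a1 (-0.27 to 0.03) and Col5a1 (-0.19 to 0.03), none of these past the threshold. Same-numbered arrays correlated between -0.18 and 0.45 in their deviations from group means, and in no comparison did every pair exceed 0.1, so the numbers were not taken to pair the samples. Between the cell types of 1 genotype all 8 pairs were above 0 (0.03 to 0.43), and 7 of 8 arrays in each genotype matched their own number best, a hint from the data and not from the design. Between genotypes 2 of 8 pericyte and 3 of 8 endothelial arrays did. With the replicate block the knockout pericyte count stayed 2 and the cell type counts were 17 and 2 in wild type and 18 and 3 in knockout. Dim probes near the floor limit what can be seen of the 10 untested collagens.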
